A study of Mus musculus with 20 samples.

Results

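The genes described here form a set of 10 that lipid-laden, phagocytic macrophages are known to express: Mmp12, Spp1, Lgals3, Gpnmb, Trem2, Itgax, Cd9, Cd63, Fabp5 and Atp6v0d2. They were found by gene symbol in the count table and took 11 of its 25308 rows, since Trem2 stands on 2 rows. The set was selected on the measured difference between amyloid and control hearts, which was already in view. The values of AL mice against controls are therefore given as a description. Where rows that passed a threshold over all genes are counted for them, nothing is read from the counts.

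Macrophages that take up lipid, dead cells or insoluble material swell with droplets and lysosomes and turn on a shared set of genes. The receptor Trem2 binds lipids and signals through the adaptor Tyrobp, and its ligation favours lipid handling and lysosomal genes. Such cells, often called foamy or lipid-associated macrophages, are known from atherosclerotic plaques and obese adipose tissue, and Trem2-bearing macrophages are also found in injured hearts.

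RNA of the heart apex was sequenced from 20 mice in 2 sequencing runs, which the labels call batches. AL mice (n = 9) were λS-DH animals, which carry a patient-derived human λ light chain at the mouse kappa locus on the DH-LMP2A background, and their hearts held amyloid deposits after injection of the variable domain of that chain as fibrils or in soluble form. LS mice (n = 4) were λS-DH animals without deposits, which the authors describe as not induced. AL and LS mice thus differed in the injection as well as in the deposits. Ctrl mice (n = 7) were DH animals without the human light chain. The DH background, in which plasma cells are abundant and secrete only light chains, was therefore common to all groups, and the labels give neither age nor sex for single mice. The first run held 7 AL, 4 LS and 4 Ctrl mice with total counts between 43993277 and 62668146, and the second run held AL8, AL9, Ctrl5, Ctrl6 and Ctrl7 with total counts between 7867642 and 11794615. The summed level of 8 cardiomyocyte genes, none of them at 0 in any group, was 45585 to 56821 CPM (the count scaled to library size) in AL mice of the first run and 57374 to 67280 CPM in its LS and Ctrl mice, so these groups did not overlap. In the second run it was 57725.5 and 73560.5 CPM in AL mice and 69001.9 to 74600.5 CPM in Ctrl mice. Of these 8 genes, 2 had an FDR (adjusted p, edgeR) under 0.05 with a negative log2FC against merged controls. Of all tested genes 19.8% did, so nothing is read from this count. The part of the cardiomyocyte genes in the values of the members was not tested.

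Libraries that stood apart touched several of the results. AL9 had a summed level of 9 fibroblast genes of 4705 CPM, against at most 1736 CPM in the other AL mice, and it was the highest AL mouse for 15 pan-macrophage genes, with 781 CPM. AL8, from the same run, was the lowest AL mouse for both lists, with 426 CPM and 205 CPM. Liver RNA (Alb, the main plasma protein) lay between 93.4 and 215 CPM in LS1, LS3, Ctrl1, Ctrl3 and Ctrl4, and at 21.7 CPM or less in the other mice. Values without AL9 or without these 5 mice stand beside the results they moved most.

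Mmp12, a secreted metalloproteinase that macrophages use to degrade elastin, had the widest separation of the set. In AL mice it ranged from 2.87 CPM through a median of 7.01 CPM to 36.5 CPM. The LS mice had 0.21, 0.15, 0.41 and 0.27 CPM, and the Ctrl mice ranged from 0.20 through a median of 0.30 to 0.97 CPM. Every AL mouse was above every control mouse, and the lowest AL mouse (AL2) was still well above the highest control (Ctrl1). The mean was 12.2 ± 11.002 CPM (SD, n = 9) in AL mice and 0.38 ± 0.26 CPM (n = 11) in LS and Ctrl mice together. The log2 fold change (log2FC) of AL mice against the merged LS and Ctrl mice, with the run in the model, was 4.77 (SE 0.418). Because whole tissue was sequenced, more cells of a type and more RNA per cell cannot be told apart in this or any later value.

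Promoters of the members were searched on both strands for short words of factors active in macrophages and osteoclasts, and 4 are shown. These 4 are not the members of largest log2FC, since Spp1 (2.00) and Lgals3 (1.95) were above Itgax (1.59) and summed Trem2 (1.78) against merged controls. Both windows with an AP-1 word are among the 4. The 250 bases before the RefSeq gene start (GRCm38.p6) are printed from 5′ to 3′ on the gene's strand, with the PU box GAGGAA (or TTCCTC on the opposite strand) and the AP-1 word TGANTCA in capitals. They lie at chr9:7344147-7344396 for Mmp12, chr6:49036268-49036517 for Gpnmb, chr7:128129300-128129549 for Itgax and chr17:48346151-48346400 for Trem2, all on the plus strand.
Mmp12: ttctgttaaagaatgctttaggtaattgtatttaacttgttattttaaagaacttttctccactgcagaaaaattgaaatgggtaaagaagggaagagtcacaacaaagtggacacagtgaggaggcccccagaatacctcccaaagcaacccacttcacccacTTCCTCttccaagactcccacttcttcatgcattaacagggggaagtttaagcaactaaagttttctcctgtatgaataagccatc
Gpnmb: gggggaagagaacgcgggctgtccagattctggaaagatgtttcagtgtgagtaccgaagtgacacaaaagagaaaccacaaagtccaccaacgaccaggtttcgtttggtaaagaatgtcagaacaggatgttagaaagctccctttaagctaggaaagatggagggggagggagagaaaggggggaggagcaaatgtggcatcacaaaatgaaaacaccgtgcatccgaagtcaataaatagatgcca
Itgax: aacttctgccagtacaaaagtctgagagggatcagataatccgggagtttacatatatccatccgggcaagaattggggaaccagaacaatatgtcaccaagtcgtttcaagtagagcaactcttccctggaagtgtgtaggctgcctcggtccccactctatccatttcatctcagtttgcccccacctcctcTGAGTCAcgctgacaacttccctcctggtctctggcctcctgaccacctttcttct
Trem2: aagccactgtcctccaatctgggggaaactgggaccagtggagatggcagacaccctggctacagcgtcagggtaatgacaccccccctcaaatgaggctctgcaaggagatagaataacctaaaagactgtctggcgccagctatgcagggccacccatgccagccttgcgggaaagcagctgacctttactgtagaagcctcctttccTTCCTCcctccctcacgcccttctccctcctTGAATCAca

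Mmp12 held a PU box whose first base was at -86 from the start, Itgax an AP-1 word at -56, and Trem2 a PU box at -40 and an AP-1 word at -9. Gpnmb held neither word. RefSeq windows were matched for 8 of the 10 genes (not Fabp5 or Atp6v0d2), and 4 of these 8 held a PU box and 2 an AP-1 word. Over the 32851 windows of the same length, 23.3% held the PU box and 6.75% the AP-1 word. The E-box CACGTG and the MITF word TCATGTG were in none of the 8 windows, and in 6.02% and 3.25% of all windows. The RefSeq start sites of Lgals3 and Cd63 lay 6109 and 8356 bases from the start of the GENCODE gene. These are matches of letters and not measured binding sites.

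**Figure D1:**
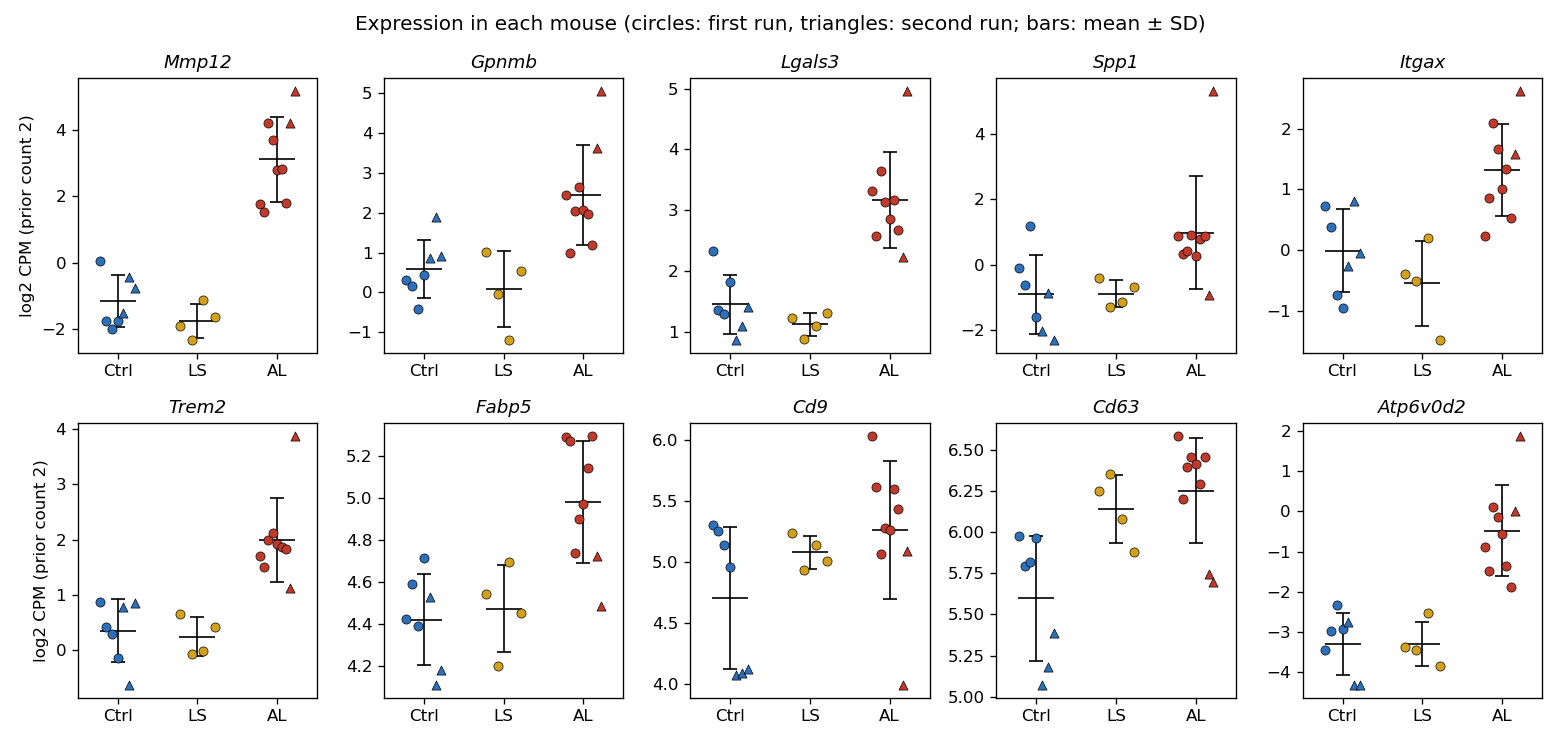
Level of each of the 10 genes (log2 CPM, y axis) in Ctrl, LS and AL mice (x axis). Each point is a mouse, circles are the first run, triangles the second run, and the black bars give the mean ± SD. Mmp12, Trem2 (rows summed) and Atp6v0d2 show AL mice above every control mouse, while Cd9 and Cd63 overlap and lie lower in the second run.

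Spp1 and Lgals3 encode the other secreted members. Spp1 (osteopontin, a matrix protein that binds integrins and CD44) ranged from 0.47 CPM through a median of 1.67 CPM to 39.8 CPM in AL mice. It was at 0.71, 0.36, 0.41 and 0.58 CPM in LS mice and ranged from 0.15 through 0.50 to 2.22 CPM in Ctrl mice. The highest value belonged to AL9 and was 21.7 times that of the next AL mouse (AL4, 1.84 CPM), and only AL9 stood above the highest control (Ctrl3). The log2FC against merged controls was 2.00 (SE 0.670), and 1.02 without AL9.

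Lgals3 (galectin-3, a lectin that binds galactosides and marks activated macrophages) ranged from 4.62 CPM through 8.73 CPM to 31.2 CPM in AL mice. The LS mice had 2.29, 1.79, 2.08 and 2.43 CPM, and the Ctrl mice ranged from 1.77 through 2.53 to 4.96 CPM. AL8 was below Ctrl1, a mouse of the other run, and the other 8 AL mice were above every control. Within each run every AL mouse was above every control, with 4.62 CPM in AL8 and at most 2.61 CPM in second-run controls. The log2FC was 1.95 (SE 0.283), and 1.57 without AL9.

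Of the receptors, Gpnmb, a transmembrane glycoprotein of lysosome-rich macrophages, ranged in AL mice from 1.93 CPM through 4.16 CPM to 33.2 CPM. It was at 1.98, 0.93, 0.39 and 1.41 CPM in LS mice and ranged from 0.70 through 1.30 to 3.69 CPM in Ctrl mice. AL2 and AL7, of the first run, fell within the range of all controls, whose top was Ctrl6 of the second run. Among first-run mice only AL2 did, since the highest control there (LS1) had 1.98 CPM. AL8 and AL9, both of the second run, were the highest. The log2FC was 2.17 (SE 0.303). Gpnmb lies at chr6:49036546-49070929 on GRCm38, on the chromosome of the engineered kappa locus, and ends 21.7 Mb before Igkc, and AL and LS mice both carry that locus. In LS mice against Ctrl, its log2FC was 0.41 (SE 0.445, FDR = 0.940, edgeR).

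Itgax (CD11c, an integrin chain of dendritic cells and activated macrophages) ranged from 1.12 CPM through 2.47 CPM to 6.11 CPM in AL mice. The LS mice had 0.71, 0.65, 1.10 and 0.31 CPM, and the Ctrl mice ranged from 0.47 through 0.92 to 1.69 CPM. AL1 and AL7 lay below Ctrl6, and the other 7 AL mice were above every control. The log2FC was 1.59 (SE 0.298). Of 10 other dendritic cell genes none was called, while all 10 had a log2FC above 0, against 51.9% of all tested genes. Their median log2FC was 0.34, with summed levels of 18.1 to 27.7 CPM in AL mice and 16.9 to 23.2 CPM in control mice.

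Trem2 was counted on 2 rows, ENSMUSG00000023992 and ENSMUSG00000116470, between which the reads were divided unevenly from mouse to mouse. The share of its reads on the first row ranged from 0% to 100%, with 0 counts there in AL1, AL3, AL7, Ctrl4, Ctrl6 and Ctrl7 and 0 on the other row in AL2, AL8 and Ctrl5. The rows had log2FC of 1.77 (SE 0.955) and 1.53 (SE 0.663). Summed, Trem2 ranged from 2.13 CPM through 3.58 CPM to 14.6 CPM in AL mice, was at 1.54, 0.90, 0.94 and 1.29 CPM in LS mice, and ranged from 0.60 through 1.29 to 1.78 CPM in Ctrl mice. Every AL mouse was then above every control mouse, and the log2FC was 1.78 with a smaller SE of 0.255. The sum was chosen after the split had been seen, and the rows cannot be told apart by the counts.

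**Figure D2:**
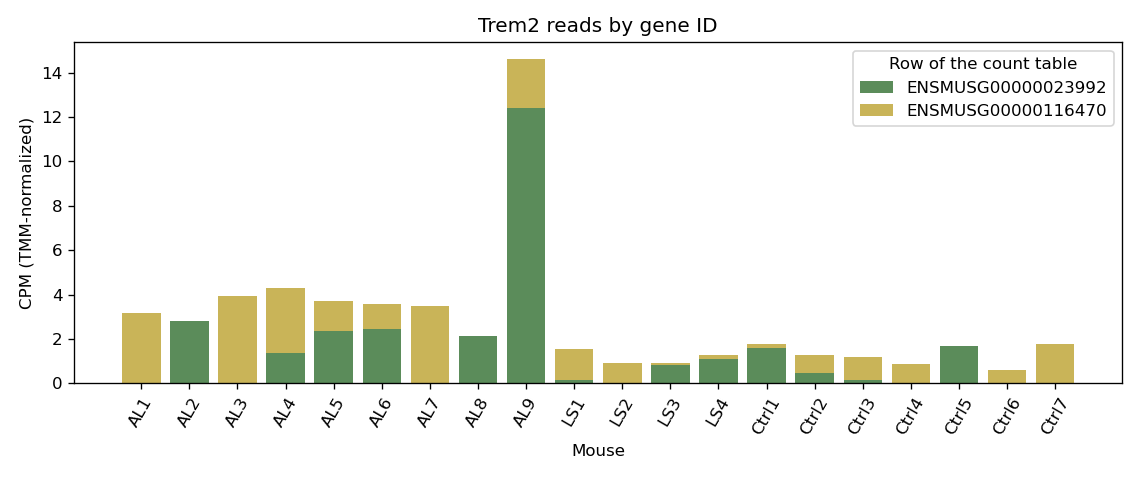
Trem2 level in each mouse (x axis, TMM-normalized CPM on the y axis), with the bar divided by the row of the count table that holds the reads. The division moves between 0% and 100% among mice of the same group, and the total is between 2.13 and 14.6 CPM in AL mice and at most 1.78 CPM in controls.

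The tetraspanins and Fabp5 had high levels in every group and small differences between them. Cd63, a membrane protein of late endosomes and lysosomes, ranged from 51.8 CPM through 84.0 CPM to 95.9 CPM in AL mice and from 33.6 through 58.7 to 81.7 CPM in LS and Ctrl mice. Its lowest values belonged to the second run. Cd9, a tetraspanin of the cell surface, ranged from 15.9 through 38.7 to 65.4 CPM in AL mice and from 16.8 through 32.1 to 39.5 CPM in control mice. The groups overlapped for both genes, and the log2FC was 0.41 for each (SE 0.0722 for Cd63, 0.119 for Cd9).

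Fabp5, a fatty acid carrier of the cytosol, ranged from 22.4 CPM through 31.3 CPM to 39.2 CPM in AL mice and from 17.2 through 21.9 to 26.2 CPM in LS and Ctrl mice. All AL mice but AL9 were above every control, and the log2FC was 0.53 (SE 0.0864), or 44.6% higher. Atp6v0d2, a subunit of the lysosomal proton pump that macrophages and osteoclasts add to it, lay near the floor in controls, with 0 to 6 counts per mouse. It ranged from 0.22 CPM through 0.63 CPM to 3.61 CPM in AL mice, and from 0 through 0.0472 to 0.15 CPM in control mice. No AL mouse overlapped the controls, and the log2FC was 3.36 (SE 0.455). With 8 counts in AL8 and 0 in Ctrl6 and Ctrl7, its values in the second run rest on few reads.

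Against merged controls, 6 of the 11 rows were called higher (FDR under 0.05 and absolute log2FC of at least 1), where 2.74% of all 14477 tested genes were called higher and 2.15% lower. The count was 7 with the rows of Trem2 summed. Spp1 was not called without Ctrl6 (log2FC 1.76), and the second row of Trem2 was called without AL2, AL8 or Ctrl7. All 11 rows had a log2FC above 0, with a median of 1.77, against 51.9% of all tested genes and a median of 0.0131 over them. Of the 10 genes, 3 had every AL mouse above every LS and Ctrl mouse (0.262% of all genes). Within the first run this held for 5 of 10 (3.01% of all genes), and within the second run for 7 of 10 (14% of all genes). The members were chosen for this difference, so these counts describe the set only. Without the 5 mice of highest Alb, an alternative chosen after seeing the data, 6 of 11 rows were again called, and the log2FC was 5.37 for Mmp12, 4.21 for Atp6v0d2 and 2.89 for Spp1.

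AL against Ctrl and AL against LS share the AL mice. With calls at an absolute log2FC of at least 0.58, 5 of 11 rows were higher against Ctrl (4.1% of all genes) and 6 of 11 against LS (5.86% of all genes). The log2FC of Mmp12 was 4.64 (SE 0.512) against Ctrl and 5.02 (SE 0.676) against LS, and that of Atp6v0d2 was 3.35 (SE 0.558) and 3.38 (SE 0.702). For Cd63 it was 0.51 (SE 0.0730) against Ctrl and 0.25 (SE 0.0858) against LS. Without the 5 mice of highest Alb, Itgax against Ctrl (1.48) and Gpnmb against LS (1.88) were not called, and Spp1 against Ctrl (3.49) was. Spp1 was also called against Ctrl without AL8 or Ctrl3 and against LS without AL9, and Fabp5 against LS was not called without AL1, AL2, AL7, LS2 or LS4.

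**Figure D3:**
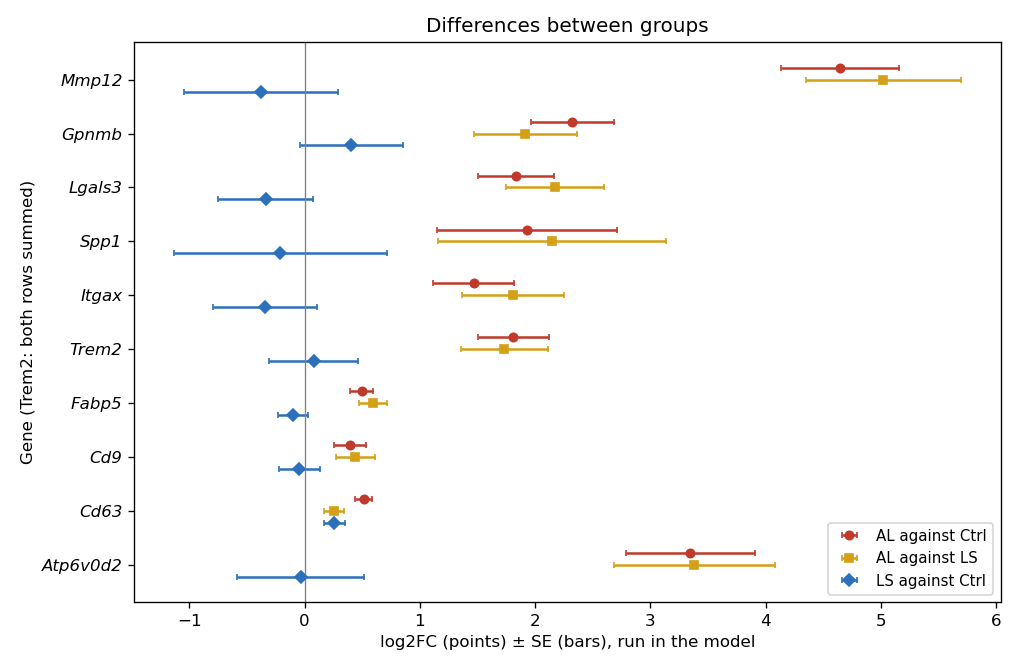
Difference between groups (log2FC on the x axis, bars are SE) for each gene (y axis), with Trem2 rows summed. AL against Ctrl (red) and AL against LS (yellow) lie to the right of 0 for all 10 genes, and LS against Ctrl (blue) lies within 1 log2 unit of 0.

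Whether the human light chain alone, without deposits, went with these genes was asked by comparing LS with Ctrl mice, a contrast that did not choose them. None of the 11 rows was called, where 0.0207% of all genes were called (3 of 14477), and edgeR gave 1 of 11 rows an unadjusted p under 0.05, against 5.94% of all genes. That row was Cd63, with a log2FC of 0.26 (SE 0.0927, unadjusted p = 0.0116, FDR = 0.755). DESeq2 called none of the 10 rows to which it gave a p, and it gave none for Spp1. For Mmp12 the log2FC was -0.38, with an interval of 2 SE from -1.71 to 0.96, and for Spp1 it was -0.21, with an interval from -2.06 to 1.64. For Fabp5 and Cd9 the intervals were narrower, from -0.36 to 0.16 and from -0.40 to 0.31. The intervals of Mmp12, Spp1, Gpnmb, Itgax, Lgals3, Atp6v0d2 and each Trem2 row hold differences of more than 1 log2 unit. Such differences were not detectable with 4 LS mice. For summed Trem2 the interval was from -0.70 to 0.86.

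The values of Spp1 and Lgals3 in LS against Ctrl moved with the mice included, and neither was called in any of these fits. Spp1 was -0.94 without AL9 (SE 0.436, unadjusted p = 0.0440, FDR = 0.606, edgeR) and -0.96 in the first run alone (FDR = 0.613), but 0.67 without Ctrl3 and 1.44 without the 5 mice of highest Alb. Lgals3 was -0.34 (SE 0.413, FDR = 0.955), -0.67 without AL9 (SE 0.235, unadjusted p = 0.0106, FDR = 0.596), -0.65 in the first run alone (FDR = 0.602) and 0.33 without the 5 mice of highest Alb.

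The runs differed for several members when all mice were fitted with their group in the model. Cd9 and Cd63 were lower in the second run, with log2FC of -0.96 (SE 0.159, FDR = 7.24e-05, edgeR) and -0.68 (SE 0.0804, FDR = 1.89e-06). Gpnmb (1.93, SE 0.347, FDR = 0.000175), Spp1 (2.07, SE 0.790, FDR = 0.0406) and Mmp12 (1.33, SE 0.470, FDR = 0.0281) were higher in it. These 5 of 11 rows compare with 19.4% of all genes called. Without AL9, Spp1 turned to -1.77 (FDR = 0.00915), Mmp12 was at 0.82 (FDR = 0.242), and Gpnmb was still called at 1.37 (SE 0.354, FDR = 0.00476). Spp1 was also not called without any 1 of AL1 to AL7.

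The difference of AL against Ctrl between the runs was called for 1 of 11 rows, Spp1 (1.49% of all genes). Its difference was 5.56 log2 units larger in the second run (SE 1.26, FDR = 0.0385, edgeR), and 0.15 without AL9. It was not called without AL2, AL5, AL6, LS3, Ctrl1, Ctrl3, Ctrl5, Ctrl6 or Ctrl7. For Lgals3 the difference was 1.71 (SE 0.613, FDR = 0.163), and -0.25 without AL9. Without AL8 it was 2.497 for Lgals3 and 4.10 for Atp6v0d2. The fits without AL8 or AL9 leave 1 AL mouse in the second run, so only their effect sizes are given. With 2 AL mice in the second run, which differ this much from each other, the within-run values of that run are those of AL8 and AL9. In the first run alone, the log2FC against merged controls was 4.53 for Mmp12, 2.92 for Atp6v0d2, 1.83 for Gpnmb, 1.63 for Lgals3, 1.47 for Itgax and 1.04 for Spp1.

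The AL mice differed in how far the set as a whole was raised. The median over genes of each mouse's fold to the control median of its run was 2.15 in AL2, the lowest, 2.94 in AL5, and 3.55 in AL4, the highest of the first run. In the second run it was 2.21 in AL8 and 8.74 in AL9, over 9 genes, since the control median of Atp6v0d2 was 0 there. Mmp12 had the highest fold in 8 of the 9 AL mice, from 11.7 in AL2 to 75.4 in AL3. In AL9 that gene was Spp1, whose control median in that run was below the floor of 3 counts, so no fold is given. Cd9 was slightly below the control median in AL3 (0.948) and AL8 (0.933). The fibroblast and pan-macrophage sums were highest in AL9 and lowest in AL8 among AL mice, and their part in these folds was not tested.

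**Figure D4:**
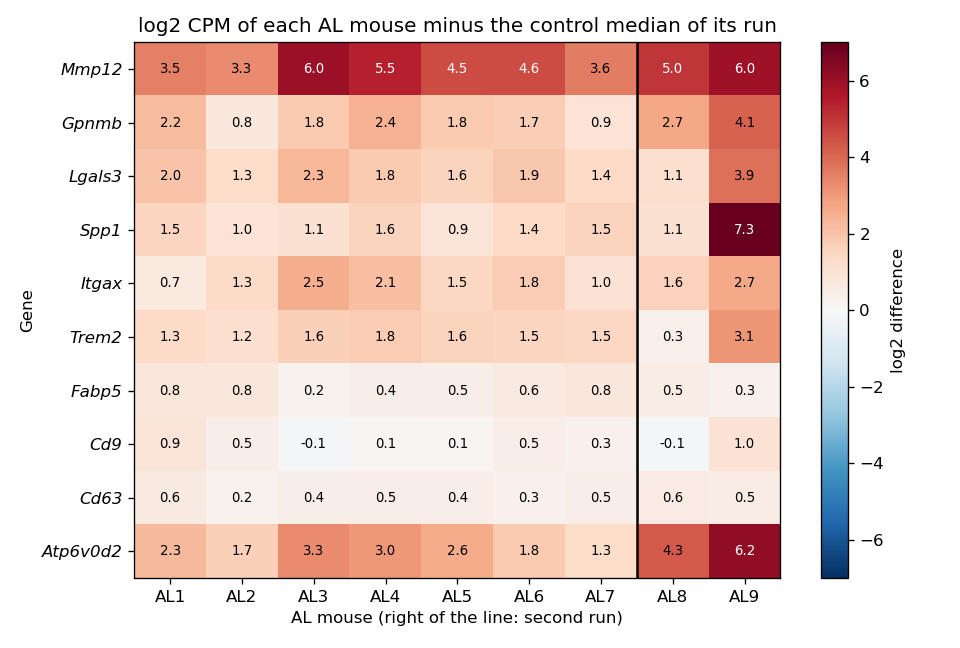
Each gene (y axis) in each AL mouse (x axis), as log2 CPM minus the median of LS and Ctrl mice of the same run (colour and number). Mmp12 and Atp6v0d2 are high in most mice, Spp1 is set apart in AL9, and Cd9 is near 0 in AL3, AL4, AL5 and AL8. For Spp1 and Atp6v0d2 the control medians of the second run lay below the floor of 3 counts. The size of their numbers in AL8 and AL9 is therefore not reliable.

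Levels of different genes were compared per kilobase of exon, with the exons of all annotated transcripts of a gene merged. This length can exceed that of the transcript present (it was 3567 bases for Fabp5 and 7237 for Mmp12), so the order between genes depends on it. Among AL mice of the first run, Cd63 had 23.0 ± 1.95 CPM per kb (SD, n = 7), Cd9 22.1 ± 5.16, Fabp5 9.61 ± 1.42 and Lgals3 4.57 ± 1.21. The genes more particular to phagocytes were lower, from Mmp12 with 1.09 ± 0.810 and Spp1 with 0.93 ± 0.187 to Atp6v0d2 with 0.20 ± 0.111. On this scale, Cd63 and Cd9 did not differ beyond their spread, and neither did Mmp12 and Spp1. In LS and Ctrl mice of the first run (n = 8), Mmp12 had 0.0467 ± 0.0371 CPM per kb and Cd63 17.7 ± 2.57.

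Whether the members moved together from mouse to mouse was examined within the 7 AL mice of the first run. None of the 45 pairs passed correction (lowest adjusted p = 0.0839, exact permutation test), although 10 pairs had an unadjusted p under 0.05. The pair with the lowest p was Mmp12 and Fabp5, which ran in opposite directions, with r = -0.96 (exact permutation p = 0.00238, n = 7) and rho = -0.82 (exact permutation p = 0.0341). Without the 2 mice farthest from the median of Mmp12, r was -0.93.

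Mmp12 ran with Itgax (r = 0.92, exact permutation p = 0.00397; rho = 0.89, exact permutation p = 0.0123) and with Trem2 (r = 0.86, exact permutation p = 0.00933; rho = 0.93, exact permutation p = 0.00675), and r was 0.96 and 0.92 without the 2 farthest mice. Fabp5 ran against Itgax (r = -0.90) and Atp6v0d2 (r = -0.90) and with Cd9 (r = 0.82, rho = 0.75), and each of these had an adjusted p of 0.0839 or 0.129 in the exact permutation test. The smallest p that 7 mice allow is 0.000397. AL1, AL2 and AL7 had the highest Fabp5 and the lowest Mmp12 of the 7, and AL3 and AL4 the reverse.

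The median r over the 45 pairs was 0.30 in these AL mice. In the 8 LS and Ctrl mice of the first run it was 0.0984, with each value centred on its group mean (LS or Ctrl). There, 3 pairs had an unadjusted p under 0.05 and none passed correction (lowest adjusted p = 0.384, permutation test over all orders). After this centring the p are approximate. Pooled over both runs after centring on the run, 13 of 45 AL pairs passed, a count that rests in part on AL8 and AL9, which lie far apart. The difference between the AL and the control correlations was not tested.

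**Figure D5:**
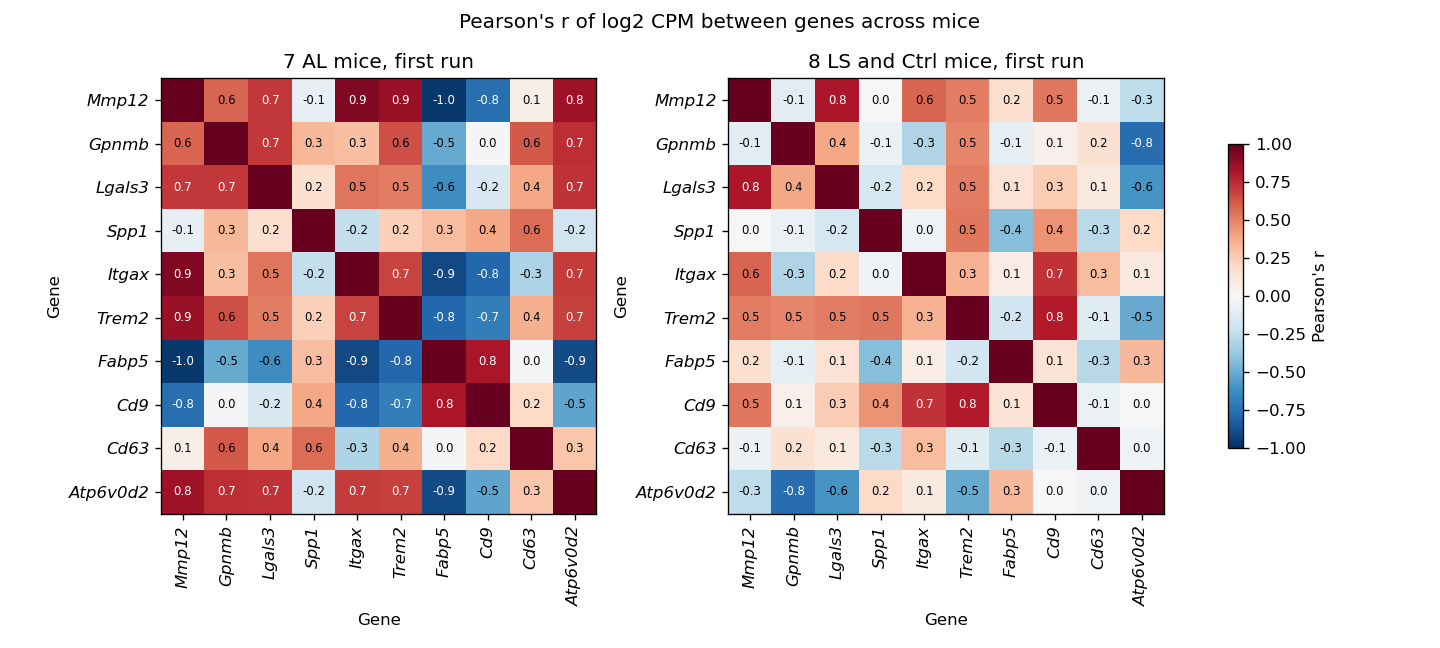
Pearson's r of log2 CPM between each pair of genes (both axes) in the 7 AL mice (left) and the 8 LS and Ctrl mice (right) of the first run, as colour and number. On the right, values were centred on the mean of LS or Ctrl mice. Fabp5 and Cd9 have negative r with Mmp12, Itgax and Trem2 on the left, and the control side holds no such block.

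The genes whose pattern over the 20 mice was most like the mean of the standardized members, with the run removed, were Sirpa (r = 0.953), Plp2 (0.948), Sh3bgrl3 (0.935), Tpm2 (0.931), Ctsz (0.929), Cacnb3 (0.926), Tmem176a (0.925), Fuca1 (0.925), Ciz1 (0.922) and Npdc1 (0.920). Sirpa, the receptor for the CD47 signal that restrains phagocytosis, had a log2FC of 0.55. Ctsz, a lysosomal protease, had 0.71, and Fuca1, a lysosomal fucosidase, had 0.41. None of the 10 reached a log2FC of 1. The points share their groups, so these r values describe the same difference between AL and control mice.

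Other genes of the same cells and pathways had list medians nearer to 0. Of 23 further genes of lipid-associated macrophages, 1 was called higher and none lower, and 10 had an FDR under 0.05 in edgeR with a positive log2FC, against 16.5% of all tested genes (19.8% with a negative one). The called gene was Cd300lb, an activating receptor of myeloid cells (log2FC 1.06, SE 0.261, FDR = 0.00408). The median over the list was 0.28. Tyrobp, the adaptor of Trem2, had a log2FC of 0.77 (SE 0.164, FDR = 0.00132), with 10.95 ± 2.48 CPM (SD, n = 9) in AL mice and 6.49 ± 2.27 CPM (n = 11) in controls. Apoe, a lipid carrier that macrophages secrete, had 0.21 (FDR = 0.481), and Lpl, the lipase that frees fatty acids from lipoproteins and is abundant in heart muscle, had -0.02 (FDR = 0.831).

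Downstream of Trem2, none of 14 signalling genes was called, 6 had an FDR under 0.05 with a positive log2FC, and the list median was 0.21. Of 20 genes of lipid uptake, storage and efflux, 1 was called in each direction. Olr1, a scavenger receptor for oxidized low density lipoprotein, was higher (2.17, SE 0.514, FDR = 0.00305), and Apoc1, an apolipoprotein made mainly in liver, was lower (-3.68, SE 0.815, FDR = 0.00188). All 10 genes of the liver list were called lower, and the summed liver level in AL mice was 0.775 to 40.0 CPM, against 0.697 to 323 CPM in control mice; their part in the value of Apoc1 was not tested.

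Among 19 binding partners, substrates and inhibitors of the members, 1 was called: Timp1, an inhibitor of matrix metalloproteinases, at 1.72 (SE 0.485, FDR = 0.00968), with 7.74 ± 9.94 CPM (SD, n = 9) in AL mice and 2.00 ± 1.17 CPM (n = 11) in controls. Only 4 of 9 AL mice were above every control for Timp1. None of 17 V-ATPase subunits (18 rows, Atp6v1c1 standing on 2) was called, and the list median was 0.06. Of 22 MiT/TFE factors and lysosomal genes, none was called, 14 had an FDR under 0.05 with a positive log2FC and 2 with a negative one, with a median of 0.26.

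Markers of the cells that could carry the members were read as whole lists. Of 15 pan-macrophage genes 1 was called, Cx3cr1, a chemokine receptor (1.17, SE 0.317, FDR = 0.00747). Of the 15, 7 had an FDR under 0.05 in edgeR with a positive log2FC and 0 with a negative one. Over all tested genes these shares were 16.5% and 19.8%. The list median was 0.49, and the summed level was 205 to 781 CPM in AL mice, 345 to 397 CPM in LS mice and 242 to 464 CPM in Ctrl mice. In the first run it was 387 to 609 CPM in AL mice and 325 to 464 CPM in LS and Ctrl mice. In the second run it was 205 and 781 CPM in AL mice and 242 to 313 CPM in Ctrl mice. Of 10 resident macrophage genes none was called and the median was -0.08, while of 6 recruited monocyte genes 3 were called higher, Chil3 (2.61), Plac8 (1.77) and Ccr2 (1.12), and the other 3 had a log2FC below 0 and were not called. The median of that list was 0.55, with summed levels of 21.7 to 90.02 CPM in AL mice and 15.7 to 58.5 CPM in controls. Of 7 osteoclast genes tested all had a log2FC above 0, with a median of 0.72, and 1 was called, Acp5, an acid phosphatase also made by macrophages (1.72). Calcr, the calcitonin receptor of osteoclasts, was at 0 in every AL mouse, every LS mouse and every Ctrl mouse of the second run. Ocstamp, another gene of this list, was at 0 in every LS mouse but not in every AL mouse. The part of any of these lists in the levels of the members was not tested.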

How the data were processed

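Polyadenylated RNA of the heart apex was sequenced in 20 mice. The authors used STAR for alignment (GRCm38) and Salmon for quantification, and deposited 1 table of estimated counts of 25308 genes, without normalization or adjustment for the run. All its sample columns were used, matched by the library names in the labels. Of the estimated counts, 14.2% were not whole, and all were rounded. Total counts lay between 7867642 and 62668146 per mouse, so second-run values of low genes are less precise.

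The filter filterByExpr of edgeR 4.0.16, set to a minimum count of 10 over the 3 groups, left 14477 genes. Counts were scaled by TMM and tested with glmQLFit and glmQLFTest in R 4.3.3, with group and run in the model. LS and Ctrl mice were merged for AL against merged controls. FDR is the Benjamini-Hochberg adjusted p over all genes tested, and SE was derived from the F statistic. CPM values are TMM-normalized, and log2 CPM used a prior count of 2. A call required FDR under 0.05 together with a log2FC of 0.58 or more in size (1 or more against merged controls). A floor of 3 counts was worth 0.0479 to 0.381 CPM, for counting error alone. Replicates are separate mice per the labels.

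Correlations used log2 CPM and two-sided permutation tests over all orders of the mice, adjusted over 45 pairs. The tests were exact for AL mice. Values of LS and Ctrl mice were first centred on their group mean, so their p are approximate. With both runs together, 20000 random orders were drawn for the LS and Ctrl mice, and all orders were used for the 9 AL mice. Scripts were tested on simulated data. Positions and exon lengths (merged over all annotated transcripts of a gene) come from GENCODE M21, and promoter windows from RefSeq. Plotting used matplotlib 3.10.9 under Python 3.11.15.

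The members and gene lists were chosen with earlier results of these data known. Named genes are all members; of each pathway list the called genes, at most 4, with Timp1, Tyrobp, Apoe and Lpl; of each cell type list the called genes, at most 3; and the 10 genes of highest r with the members' mean among genes of at least 1 CPM. Calcr and Ocstamp were named outside this rule, after their values were seen. Alternatives were no filter, at least 10 counts in every mouse, RLE size factors, DESeq2 1.42.0, log2 CPM of Xist as covariate, ComBat-seq of sva 3.50.0, no run term, the first run alone, a replicate block, and leaving out each mouse.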

Additional observations from a re-analysis of the deposited data

Results flagged for a closer look

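Among 30 combinations of a gene and a group, 8 had a mouse set apart from the rest of its group by Dixon's criterion, applied to CPM. The 6 flags of AL9 come from 1 library. The criterion's rate of about 1 in 20 is for normally distributed values. It need not hold for CPM pooled over both runs, so the flags are not set against it. The AL9 values were 36.5 CPM for Mmp12 (next mouse 18.6), 33.2 CPM for Gpnmb (next 12.2), 31.2 CPM for Lgals3 (next 12.4), 39.8 CPM for Spp1 (next 1.84), 14.6 CPM for Trem2 (next 4.29) and 3.61 CPM for Atp6v0d2 (next 1.03). In Ctrl mice, Gpnmb was set apart in Ctrl6 at 3.69 CPM (next 1.84) and Spp1 in Ctrl3 at 2.22 CPM (next 0.892), and Ctrl3 was also the control with the highest Alb (215 CPM).

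The difference of AL against Ctrl in Spp1 was larger in the second run than in the first by 5.56 log2 units (edgeR interaction term, FDR = 0.0385), and it was 0.15 without AL9.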

How the results depend on the processing

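With at least 10 counts in every mouse, 2 rows were called against merged controls (6 before), 2 against Ctrl (5 before), 3 against LS (6 before), 3 between the runs (5 before) and 0 for the difference between runs (1 before), and 3 listed genes in place of 25, because fewer rows were tested. No other alternative moved the counts against merged controls, Ctrl or LS by more than 1.5 times, and LS against Ctrl stayed at 0 under all. Without the 5 mice of highest Alb (chosen after seeing the data), 6 rows were called against merged controls, 15 listed genes in place of 25, and 0 for the difference between runs. DESeq2 called 3 rows between the runs. Leaving out AL8 or AL9 left 1 AL mouse in the second run, so no count of calls is given for the difference between runs there.

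The replicate numbers of the labels did not pair the mice (r of same-numbered mice from -0.15 to 0.23 over 15 pairs). With a replicate block, 2 rows differed between the runs in place of 5, 5 were called against merged controls, 4 against Ctrl, 6 against LS and 0 for LS against Ctrl.

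Some directions turned. Gpnmb in LS against Ctrl was -0.41 without the run term. Without the run term, Fabp5 (0.0455) and Cd9 (0.27) turned too. Without the 5 mice of highest Alb, Mmp12 (0.20), Spp1 (1.44) and Lgals3 (0.33) turned. Over all single mice left out, the value in LS against Ctrl lay between -0.68 and 0.37 (without Ctrl1) for Mmp12, between -0.94 (without AL9) and 0.67 (without Ctrl3) for Spp1 and between -0.14 and 0.00397 for Cd9. Spp1 between the runs was -1.72 with the replicate block, and lay between -1.77 (without AL9) and 2.48 with single mice left out. Lgals3 in the difference between runs lay between -0.25 (without AL9) and 2.497 (without AL8). The cause was not tested. Of the AL pairs, 5 of 45 passed with CPM in place of log2 CPM, 13 with both runs centred and 12 with both runs not centred. Leaving out each mouse gave 0 passing AL pairs. Control values were centred on their group mean throughout. Among control pairs, 1 passed with both runs not centred on the run, and leaving out each mouse gave 0 to 1, with 1 without Ctrl3. Low counts limit Atp6v0d2 and the second run.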

Other observations

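Of 8 platelet and megakaryocyte genes tested, 3 were called higher in AL mice against merged controls, with a list median log2FC of 1.15. These were Ppbp, a platelet chemokine (1.63, SE 0.375, FDR = 0.00249, edgeR), Gp9, a subunit of the receptor for von Willebrand factor (1.46, SE 0.448), and Tubb1, the tubulin of platelets (1.35, SE 0.318). Their summed level was 14.6 to 30.2 CPM in AL mice and 6.496 to 17.99 CPM in LS and Ctrl mice. Of 7 mast cell genes, Fcer1a was called (1.53, SE 0.454), with summed levels of 8.44 to 25.3 CPM in AL mice and 7.49 to 18.2 CPM in controls.

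Of 5 adipocyte genes 2 were called, Retn (2.66, SE 0.853) and Adipoq (2.35, SE 0.823), and the summed adipocyte level was 51.7 CPM in AL1, at most 5.34 CPM in the other AL mice, and 0.199 to 6.10 CPM in LS and Ctrl mice. No gene was called among 6 neutrophil, 5 NK cell, 9 fibroblast, 8 endothelial, 6 smooth muscle and 8 cardiomyocyte genes, with list medians of 0.41, -0.06, 0.42, 0.10, 0.10 and -0.10.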
